A study of Papio anubis with 588 samples.

Results

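The late enzymes of cholesterol synthesis were followed in liver, muscle and adipose tissue of captive olive baboons, Papio anubis, which are Old World monkeys. The genes were taken by symbol from the deposited count table: SQLE, LSS, TM7SF2, MSMO1, NSDHL, EBP, SC5D and DHCR7, which are 8 of the 9 listed symbols and 8 of the 34178 genes in the table. CYP51A1, the ninth, was not analysed here. RNA sequencing libraries came from 99 animals, each biopsied when it had eaten a diet rich in cholesterol and fat for 2 years (HCHF) and, before that, at 0 years on food poor in them (LCLF). Of 588 libraries the authors kept 570 after quality control, namely 87 HCHF and 95 LCLF libraries of liver, 98 HCHF and 96 LCLF libraries of muscle, and 95 HCHF and 99 LCLF libraries of adipose tissue. The labels give no genotype, age or treatment other than the diet, and every animal changed diet, so the diet and the 2 years that passed cannot be told apart.

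SQLE oxidises squalene and LSS closes the product into lanosterol, the first sterol. CYP51A1, TM7SF2, MSMO1 and NSDHL then reshape the rings by removing methyl groups and a double bond, and EBP, SC5D and DHCR7 shift, add and reduce the double bonds that remain on the way to cholesterol. The genes are classical targets of SREBP-2, the product of SREBF2, a transcription factor that is held in the endoplasmic reticulum when that membrane is rich in cholesterol and is released when it is poor. In liver, cholesterol arriving from food is known to lower this synthesis.

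Libraries held between 6.51 and 38.46 M counts (mega-counts) in total, with a median of 19.5 M. Libraries were made in a pair of batches, and the 16 animals taken here as batch 1 had a median total of 10.95 M, against 20.1 M in the 83 animals of batch 2. Marker genes matched the labelled tissue: hepatocyte markers took a median of 18.5% of counts in liver, skeletal myocyte markers 18.3% in muscle and adipocyte markers 1.89% in adipose tissue. In 2 HCHF adipose libraries the adipocyte markers took less than 1 part in 5 of that median, and the lowest share was 0.144%. In 5 libraries markers of another tissue passed 5% of their median share in that tissue, namely adipocyte markers in 2 liver libraries, hepatocyte markers in 2 muscle libraries and myocyte markers in 1 adipose library. Adipocyte markers in muscle were left out of this count, since they took a median of 0.165% and up to 0.259% of counts there, above that limit in a typical muscle library. Values without these animals are given where they differ. The diet was compared within animals that had both libraries, of which liver had 84, muscle 95 and adipose tissue 95.

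The first comparison asked where the enzymes are expressed. On the LCLF diet all 8 transcripts were highest in liver, next in adipose tissue and lowest in muscle, in the 92 animals with all 3 tissues. The order held for 8 of 8 genes in each pair of tissues by edgeR's quasi-likelihood test, but such differences are common: of 17135 genes tested, 47.0% were higher in liver than in muscle and 45.8% lower (92.8% in all), 43.1% were higher in liver than in adipose tissue and 48.3% lower (91.4% in all), and 53.3% were higher in adipose tissue than in muscle and 40.2% lower (93.5% in all). Levels here are CPM (a count per 1 M counts of its library), which are not corrected for transcript length, so they are compared only between samples of a gene and not between genes.

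SQLE, squalene epoxidase, ranged from 1.28 to 149.7 CPM in liver with a median of 16.7, from 2.62 to 17.02 CPM in adipose tissue with a median of 4.57, and from 0.158 to 2.81 CPM in muscle with a median of 1.26. The liver and adipose ranges overlapped, and liver was the highest tissue in 86 of 92 animals. EBP, the sterol isomerase, showed the widest gap between liver and the other tissues, at 178 to 551 CPM in liver, 7.30 to 18.8 CPM in adipose tissue and 2.74 to 16.7 CPM in muscle. Its liver range lay wholly above both others, and the log2 ratio of liver to adipose tissue was 4.72 ± 0.06 (SE, n = 92 animals; edgeR adjusted p = 2.38e-137).

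NSDHL, the decarboxylase that acts in removing the ring's methyl groups, was the member with the smallest gap between liver and adipose tissue. It had 67.2 to 270.7 CPM in liver with a median of 120.1, and 16.8 to 225 CPM in adipose tissue with a median of 64.8. These ranges overlapped widely. The log2 ratio of liver to adipose tissue was 0.78 ± 0.08 (edgeR adjusted p = 9.34e-20), and adipose tissue was the highest tissue in 17 of 92 animals. Ratios of the other 6 genes between liver and adipose tissue lay between 1.33 (DHCR7) and 4.17 (MSMO1) on the log2 scale. Between adipose tissue and muscle the 8 ratios ran from 0.63 ± 0.12 for SC5D to 2.55 ± 0.08 for NSDHL, where the median of all genes was 0.27. TM7SF2, MSMO1, EBP and SC5D were highest in liver in 92 of 92 animals.

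**Figure D1:**
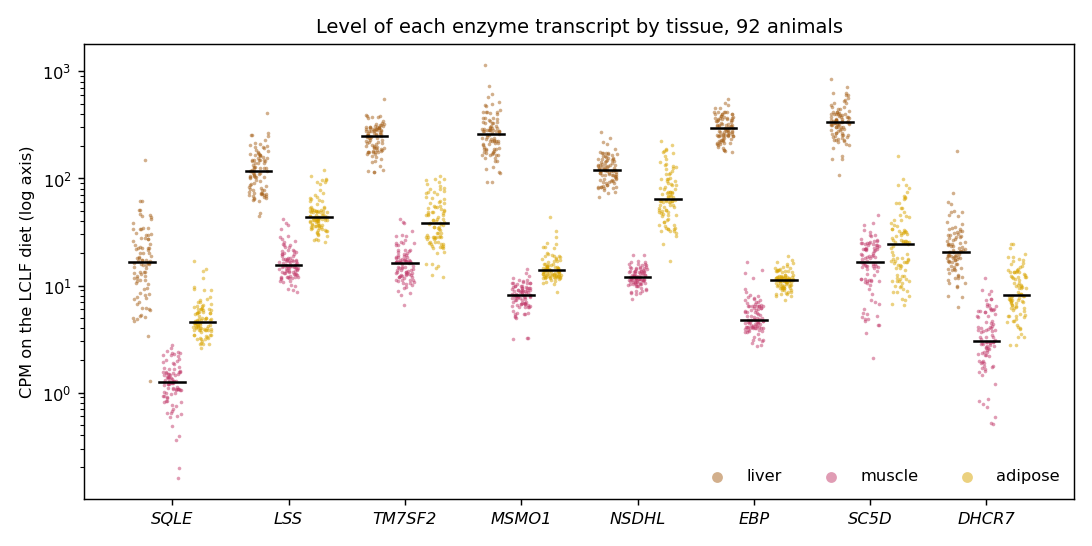
CPM of each enzyme transcript on the LCLF diet (log axis) in liver, muscle and adipose tissue of 92 animals, with 1 point per library and a bar at the median. All 8 medians are highest in liver and lowest in muscle; the liver and adipose points of NSDHL overlap most (medians 120.1 and 64.8 CPM).

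The next comparison asked how each enzyme transcript changed in liver on the HCHF diet. All 8 of 8 fell, where 27.1% of the 14919 liver genes tested fell, 22.3% rose and 49.4% did either (quasi-likelihood test of edgeR, blocked by animal, with Benjamini-Hochberg adjustment over all genes tested at 0.05). The median log2 fold change was -0.56 over the 8 members and -0.03 over all genes tested. All 8 transcripts were lower on HCHF in 47 of 84 animals, 7 of 8 in 14 more, and none in 2 animals.

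SQLE, described as a control point of the pathway, fell furthest. It had 0.718 to 90.04 CPM in HCHF livers with a median of 4.31, against 0.988 to 115.6 CPM in LCLF livers with a median of 12.9. The full ranges overlapped almost entirely. The lower and upper quartiles were 2.52 and 8.34 CPM on HCHF, against 8.02 and 21.5 CPM on LCLF. Within animals, 71 of 84 were lower on HCHF. The log2 fold change was -1.31 ± 0.15 (SE; all liver values have n = 84 animals; edgeR adjusted p = 1.31e-12). It was -0.87 without the animal block, in a fit that also took in the unpaired liver libraries. Mean levels in the paired animals were 9.04 CPM in HCHF and 16.8 CPM in LCLF livers. Why the value without the block was smaller was not tested. Animals also differed more on HCHF than on LCLF, with an SD of log2 CPM of 1.41 in HCHF livers and 1.08 in LCLF livers.

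MSMO1, the methylsterol oxidase, had 47.0 to 478 CPM in HCHF livers with a median of 104.4, against 72.7 to 920.2 CPM in LCLF livers with a median of 206. It was lower on HCHF in 73 animals, by -0.77 ± 0.08 on the log2 scale (edgeR adjusted p = 7.05e-14). NSDHL, which acts after it on the same methyl groups, had a median of 67.8 CPM in HCHF livers and 95.4 CPM in LCLF livers, a log2 fold change of -0.48 ± 0.05. Both groups overlapped in both genes.

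TM7SF2, a sterol reductase acting on the double bond that CYP51A1 leaves, had 29.1 to 242 CPM in HCHF livers with a median of 128, against 89.95 to 439 CPM in LCLF livers with a median of 199. The groups overlapped, with 75 of 84 animals lower on HCHF. The log2 fold change was -0.64 ± 0.06 (edgeR adjusted p = 3.45e-16). The RefSeq annotation places TM7SF2 across VPS51, a gene of vesicle transport, and whether reads were counted by strand is not given in the sources used here. In liver VPS51 had a log2 fold change of 0.01 ± 0.03 and the changes of the 2 genes correlated at r = 0.08.

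DHCR7, the reductase of the final step, had 2.52 to 41.4 CPM in HCHF livers with a median of 9.37, against 5.03 to 143 CPM in LCLF livers with a median of 16.3. It fell by 0.81 ± 0.10 on the log2 scale (edgeR adjusted p = 1.31e-11) and was lower in 72 animals. EBP (-0.46 ± 0.05), SC5D, the desaturase before DHCR7 (-0.48 ± 0.06), and LSS, the cyclase (-0.37 ± 0.06), fell by less, in 75, 70 and 64 of 84 animals. Among the members LSS moved least, with a median of 71.7 CPM in HCHF livers and 94.4 CPM in LCLF livers.

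The fall of SQLE was larger than that of every other member in liver. The within-animal change of a member minus that of SQLE was between 0.50 ± 0.11 (DHCR7) and 0.93 ± 0.12 (LSS) on the log2 scale, and the member's change lay above that of SQLE in 59 to 68 of 84 animals. All 7 differences gave p = 1e-05, the smallest that 100000 sign-flip permutations can give (two-sided, adjusted p = 2.62e-05 over 21 comparisons in 3 tissues). SQLE had the 6th lowest log2 fold change of the 14919 liver genes, so a change above that of SQLE was common to nearly all genes. Even MSMO1, whose change followed that of SQLE most closely, fell by 0.53 ± 0.09 less.

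**Figure D2:**
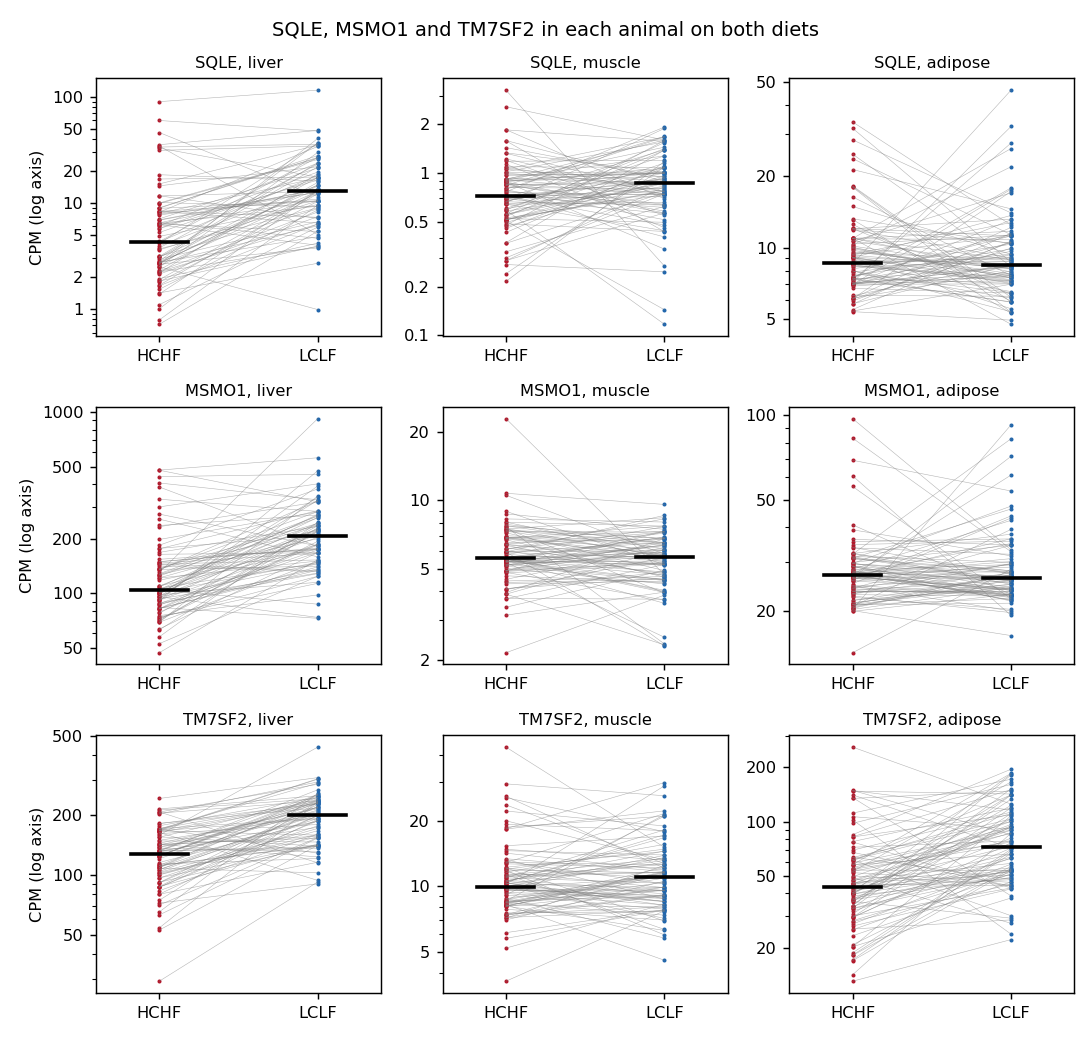
CPM (log axis) of SQLE, MSMO1 and TM7SF2 in each animal on HCHF (left, red) and LCLF (right, blue) in liver, muscle and adipose tissue; a grey line joins the libraries of an animal and a black bar marks the median. In liver all 3 medians are lower on HCHF; in adipose tissue the median of TM7SF2 is lower (43.6 against 72.7 CPM), while those of SQLE and MSMO1 lie at 8.61 against 8.43 and 26.8 against 26.3 CPM.

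Markers of other liver cells moved with these values. Of 12 macrophage markers tested 11 rose, as did 12 of 12 of T and NK cells, 11 of 11 of endothelium and 10 of 11 of fibroblasts and stellate cells, while 9 of 11 hepatocyte markers fell (median log2 fold change -0.20). Both erythroid markers tested (2 of 2) rose, with a median of 1.11. The summed macrophage markers ranged from 527 to 1951 CPM in HCHF livers and from 272 to 1392 CPM in LCLF livers, and the endothelial ones from 125.1 to 419 CPM in HCHF and from 71.5 to 292 CPM in LCLF livers. Hepatocyte markers took a median of 17.9% of counts in HCHF and 19.0% in LCLF livers. In bulk tissue, fewer cells of a type and less RNA per cell cannot be told apart. With the changes of the other marker scores as covariates, the hepatocyte, erythroid and mesothelial ones left out, 0 of 8 members passed the limma test. All 8 kept negative values, between -0.18 (EBP) and -0.90 (SQLE). In that fit 35 genes passed upwards and 20 downwards among all 14919. The changes of the members correlated with that of the hepatocyte score at r from 0.04 (LSS) to 0.47 (SC5D). With that of the endothelial score r ran from -0.22 to -0.36. In the 13 animals of batch 1 r lay between -0.36 and 0.36 for the hepatocyte score and between -0.03 and 0.22 for the endothelial one.

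Other genes of cholesterol synthesis were lower in the same livers. HMGCS1, which makes HMG-CoA, had a log2 fold change of -0.59 ± 0.09. Of the 9 early genes 8 fell and 0 rose (median -0.51), with FDPS, which makes farnesyl diphosphate, at -0.79 ± 0.09 and IDI1, an isomerase, at -0.69 ± 0.09. Of 5 other late genes 3 fell, among them HSD17B7, a ketoreductase of the pathway (-0.51 ± 0.06), and ERG28, a scaffold of the demethylation complex in yeast (-0.44 ± 0.04). LBR, a lamin-binding protein of the nuclear envelope with the same reductase activity as TM7SF2, had 31.6 CPM in HCHF livers and 30.7 CPM in LCLF livers (medians; log2 fold change 0.05 ± 0.03), which did not pass.

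Genes of sterol sensing and uptake were more mixed, with 9 of 14 lower and 3 higher. SREBF2 fell by 0.32 ± 0.05, and INSIG1, which holds the SREBP complex in the endoplasmic reticulum, by 0.57 ± 0.12. MYLIP, a ubiquitin ligase induced by LXR, rose (0.67 ± 0.06), as did SREBF1, which codes for the SREBP of fatty acid synthesis (0.62 ± 0.13). Of 10 LXR target genes 6 rose and 0 fell.

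In muscle 0 of 8 members passed the test, where 6.70% of 13621 genes rose, 7.91% fell and 14.6% did either. At an unadjusted p under 0.05 there were 2, SQLE and DHCR7, both lower, and DESeq2 and limma-voom also called 0. SQLE was low there, with 0.215 to 3.25 CPM in HCHF muscle and a median of 0.727, against 0.117 to 1.92 CPM in LCLF muscle and a median of 0.874. The log2 fold change of -0.20 ± 0.09 (n = 95 animals, as for all muscle values) did not pass (edgeR adjusted p = 0.125). RefSeq places ZNF572, a zinc finger gene, across SQLE, and its muscle level was near that of SQLE, with a median of 0.577 CPM on HCHF and 0.497 CPM on LCLF. Its changes correlated with those of SQLE at r = 0.06 in muscle, -0.01 in liver and -0.02 in adipose tissue, and a sharing of reads between them was not tested. DHCR7 had a median of 1.99 CPM in HCHF muscle and 2.16 CPM in LCLF muscle, with a log2 fold change of -0.19 ± 0.07 (edgeR adjusted p = 0.0647). It passed at -0.20 without the 2 animals whose muscle libraries held hepatocyte markers, and at -0.23 in the table of 588 libraries.

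The other 6 members had log2 fold changes between -0.10 ± 0.06 (EBP) and 0.08 ± 0.05 (MSMO1) in muscle, and all 6 lay closer to 0 than the smallest of the 8 liver changes. Single animals still moved widely: the change of SC5D ran from -1.66 to 5.58 on the log2 scale, and the LCLF library behind the highest value had 0.201 CPM, where the LCLF median was 11.8. Of the early genes IDI1 rose (0.27 ± 0.07) and PMVK, phosphomevalonate kinase, and FDPS fell by 0.14 ± 0.03 and 0.10 ± 0.03. HMGCS1 (0.12 ± 0.05), SREBF2 (0.01 ± 0.05), INSIG1 (0.05 ± 0.07) and LBR (0.00 ± 0.03) did not pass. Of 13 genes of sterol sensing and uptake tested 2 rose and 1 fell.

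In adipose tissue 4 of 8 members fell and 0 rose, where 19.9% of 16827 genes fell, 18.7% rose and 38.5% did either. The 4 were TM7SF2, SC5D, NSDHL and LSS, and TM7SF2 stood apart in size. TM7SF2 had 13.0 to 259.6 CPM in HCHF adipose tissue with a median of 43.6, against 22.2 to 195.6 CPM in LCLF adipose tissue with a median of 72.7. The groups overlapped over nearly their whole range, while 77 of 95 animals were lower on HCHF. The log2 fold change was -0.71 ± 0.09 (SE; all adipose values have n = 95 animals; edgeR adjusted p = 2.17e-09), the 36th lowest of the 16827 genes.

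SC5D had a median of 33.5 CPM in HCHF and 44.1 CPM in LCLF adipose tissue (-0.28 ± 0.10; edgeR adjusted p = 0.0135), and NSDHL one of 105.4 CPM in HCHF and 127 CPM in LCLF tissue (-0.25 ± 0.08; adjusted p = 0.0137). LSS had 74.6 CPM in HCHF and 82.4 CPM in LCLF tissue (-0.15 ± 0.06; adjusted p = 0.0242). These 3 were lower on HCHF in 57, 58 and 52 of 95 animals, so the direction was far less common than for TM7SF2. Without the animal block 2 of the 4 passed, TM7SF2 and SC5D. With the marker scores other than the adipocyte one as covariates 1 passed, TM7SF2, and NSDHL turned to 0.13. In the 16 animals of batch 1 alone 0 passed, with TM7SF2 at -0.74, where 1 of 15601 genes passed.

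SQLE did not pass in adipose tissue. It had 5.37 to 33.9 CPM on HCHF with a median of 8.61, against 4.75 to 46.1 CPM on LCLF with a median of 8.43, and 50 of 95 animals were higher (log2 fold change 0.01 ± 0.08). MSMO1 (-0.04 ± 0.05), EBP (0.01 ± 0.04) and DHCR7 did not pass either. DHCR7 leaned the other way, with a median of 18.9 CPM in HCHF and 15.3 CPM in LCLF tissue and a log2 fold change of 0.18 ± 0.08 (edgeR adjusted p = 0.0842), higher in 60 animals.

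The change of TM7SF2 in adipose tissue was more negative than that of SQLE by 0.71 ± 0.15 on the log2 scale (adjusted p = 2.62e-05, sign-flip permutation test), and the change of TM7SF2 lay above that of SQLE in 28 of 95 animals. SC5D (-0.30 ± 0.11), NSDHL (-0.26 ± 0.11) and LSS (-0.17 ± 0.07) also changed more negatively than SQLE, and DHCR7 more positively (0.18 ± 0.08), with adjusted p between 0.0151 and 0.044. None of these 4 differences passed in batch 1 alone, those of LSS, NSDHL and SC5D did not pass in the table of 588 libraries, and those of LSS and NSDHL did not pass without the animals of low adipocyte marker share (-0.15 and -0.23) or without those with markers of another tissue (-0.14 and -0.23). The SD of the changes over animals was 0.80 for SQLE and 0.90 for TM7SF2 in adipose tissue, where it was 1.32 and 0.54 in liver.

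Of the 9 early genes 3 fell in adipose tissue and 0 rose: ACAT2, the first enzyme of the pathway (-0.16 ± 0.06), MVD, a decarboxylase (-0.17 ± 0.04), and FDPS (-0.14 ± 0.05). HMGCS1 (0.07 ± 0.04), SREBF2 (-0.04 ± 0.05) and INSIG1 (-0.17 ± 0.07) did not pass. LBR fell by 0.07 ± 0.02. SREBF1 (0.36 ± 0.12) and NPC2, a carrier of cholesterol in lysosomes (0.17 ± 0.04), rose, and 0 of 14 genes of sterol sensing and uptake fell.

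Macrophage markers rose here too, 11 of 12, with summed levels of 297 to 3424 CPM in HCHF and 106.2 to 3648 CPM in LCLF adipose tissue. Of 10 fibroblast markers 8 rose, of 7 mesothelial markers 6, and of 11 endothelial markers 7 fell, while 2 of 9 adipocyte markers fell and 1 rose. Of the marker lists the erythroid one had the highest median change, with 3 of 3 higher, a median log2 fold change of 0.95 and sums of 128.9 to 31520 CPM in HCHF and 103.1 to 7167 CPM in LCLF adipose tissue. Their score had r = 0.00 with the change of TM7SF2. Across animals the change of TM7SF2 correlated with that of the macrophage score at r = -0.46 and with that of the adipocyte score at r = 0.33. With the other marker scores as covariates, the adipocyte score left out, TM7SF2 changed by -0.38 and still passed the limma test. The overlapping gene VPS51 fell by 0.12 ± 0.02 in adipose tissue, its change correlated with that of TM7SF2 at r = 0.61, and a sharing of reads between the 2 genes was not tested. Leaving out the 2 animals with low adipocyte marker shares gave -0.70 for TM7SF2.

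**Figure D3:**
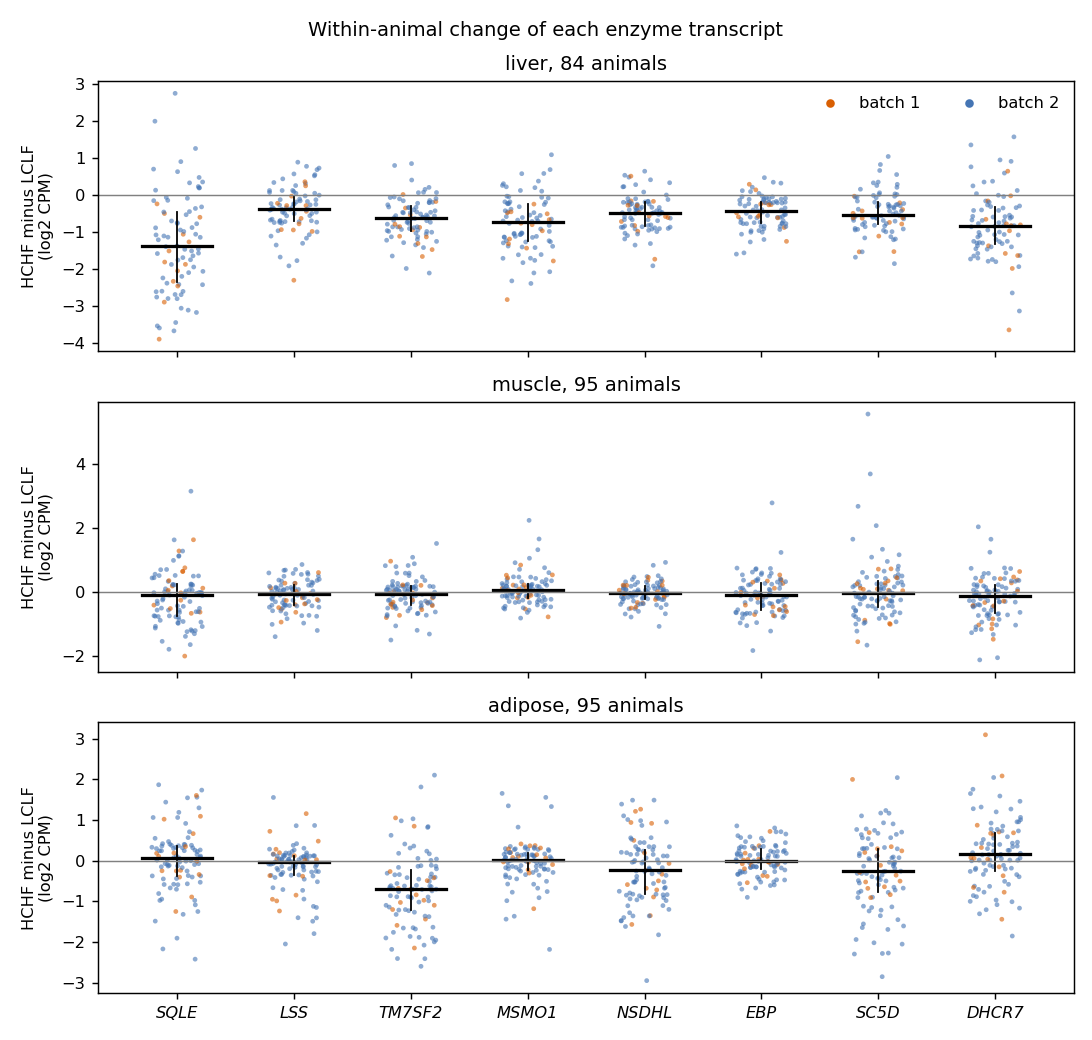
Within-animal change (HCHF minus LCLF, log2 CPM) of each enzyme transcript in liver (84 animals), muscle (95) and adipose tissue (95); each point is an animal, coloured by batch, with a thick bar at the median and a thin line over the quartiles. In liver all 8 medians lie below 0 and SQLE spreads from -3.89 to 2.75; in adipose tissue the median of TM7SF2 is -0.70 and that of SQLE 0.06.

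Whether the diet effect differed between tissues was tested on the difference of an animal's changes by limma. Between liver and muscle it differed for 8 of 8 members, all lower in liver, where 17.2% of 12553 genes were lower in liver, 16.5% higher and 33.7% either. The differences ran from -0.32 ± 0.09 for LSS to -1.18 ± 0.18 for SQLE (n = 80 animals). Between liver and adipose tissue it differed for 5 of 8, where 18.4% of 14102 genes were lower in liver and 38.4% either lower or higher. These were SQLE (-1.31 ± 0.17), DHCR7 (-1.0 ± 0.12), MSMO1 (-0.74 ± 0.10), EBP (-0.51 ± 0.06) and LSS (-0.20 ± 0.07; n = 82 animals).

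For TM7SF2 the liver and adipose effects were nearly the same size, with mean changes of -0.62 in liver and -0.64 in adipose tissue of the same 82 animals and a difference of 0.02 ± 0.11. NSDHL (-0.19 ± 0.09) and SC5D (-0.15 ± 0.10) did not pass either; NSDHL passed at -0.23 without the animals with markers of another tissue. Between adipose tissue and muscle 2 of 8 differed, where 6.89% of 13190 genes were lower in adipose tissue, 6.26% higher and 13.2% either. TM7SF2 was lower in adipose tissue (-0.60 ± 0.11, n = 91 animals, lower in 68; limma adjusted p = 3.67e-05) and DHCR7 higher (0.40 ± 0.10, higher in 61; adjusted p = 0.00351).

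The last comparisons asked whether the enzymes vary together from animal to animal. Each pair of members was correlated across animals in each tissue, for the LCLF level, the HCHF level and the change, 252 correlations in all, with batch means removed and permutation p adjusted over the 252. In liver 28 of 28 pairs correlated positively in all 3 measures, and all 28 were positive in each batch. The median r was 0.59 for the HCHF level, 0.59 for the LCLF level and 0.60 for the change. For the change the weakest of the 28 was 0.32, a value that 7.49% of all pairs of the 14919 genes reached. SC5D stood out less than the others: its r with many genes was high, 0 of its 7 partners were among the 1% of genes most like it, and NSDHL ranked 2390 of 14918 for it, whereas for the other members 6 or 7 of 7 partners were among that 1%. The closest pair was SQLE and MSMO1, with r = 0.87 on HCHF, 0.80 on LCLF and 0.83 for the change. The loosest pair for the change was NSDHL and SC5D (r = 0.32).

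Changes of the members followed that of SREBF2 in liver, with r from 0.39 (TM7SF2) to 0.80 (DHCR7; rho = 0.80, 0.90 in batch 1 and 0.79 in batch 2). Against HMGCS1 the values ran from 0.31 (EBP) to 0.81 (MSMO1). Correlations with SREBF1 were lower than those with SREBF2 for every member, from -0.08 (SQLE) to 0.53 (LSS). LBR, which did not pass, had r between -0.13 and 0.11. All 8 correlations with SREBF2 passed a permutation test (adjusted p = 0.000717 for TM7SF2 and 3.53e-05 for the 7 others). The adjustment covered 240 such relations in 3 tissues. The share of all liver genes as close to SREBF2 is not given here. Against INSIG1 r lay between 0.04 (LSS) and 0.26 (MSMO1). Of these only MSMO1 passed, by r (adjusted permutation p = 0.0315) and not by rho (0.0885).

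In adipose tissue the pairs were of mixed sign. Of the 21 pairs without TM7SF2, 16 correlated positively for the change and 0 negatively (median r = 0.37), while of the 7 pairs with TM7SF2 0 correlated positively and 4 negatively (median r = -0.22). Over all pairs of adipose genes, 15.2% reached the weakest positive r called (0.23), where 57.1% of the 28 member pairs were called positive, and 15.8% reached the weakest negative one (-0.22), where 14.3% of the member pairs were called negative, a share near the background. For LSS, NSDHL, SC5D and TM7SF2, 0 of 7 partners were among the 1% of genes most like them, and for SQLE, MSMO1 and EBP 3 were. The 4 negative partners were SQLE, MSMO1, DHCR7 and EBP, of which EBP passed by Pearson's r (adjusted permutation p = 0.0483) but not by Spearman's rho (-0.20; adjusted permutation p = 0.078). On the HCHF level the pairs with TM7SF2 had 1 positive call, with NSDHL (r = 0.37), 0 negative ones and a median r of 0.04. On the LCLF level they had 0 positive, 3 negative and a median of -0.22. On LCLF 9.46% of all adipose gene pairs reached the weakest negative r called (-0.29), where 10.7% of the 28 member pairs were called negative. On HCHF 6.59% reached the weakest positive one (0.31), where 57.1% of the member pairs were called positive. SQLE and MSMO1 were as close as in liver (r = 0.82), and EBP and DHCR7 reached 0.71, against 0.66 in liver.

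For TM7SF2 and SQLE in adipose tissue the changes gave r = -0.42 and rho = -0.43 (n = 95 animals; permutation test, adjusted p = 4.27e-05 and 0.000105). SQLE was higher and TM7SF2 lower on HCHF in 43 of 95 animals, both were lower in 34, TM7SF2 alone was higher in 11 and both were higher in 7. The relation was -0.55 among the 16 animals of batch 1 and -0.40 among the 79 of batch 2. It was -0.40 without the 2 animals farthest from the median of SQLE, -0.42 without the animal whose library held myocyte markers, and -0.31 with the changes of all marker scores removed, a setting chosen after seeing the data. The same sign was seen between levels, with r = -0.16 on HCHF (rho = -0.23; adjusted p = 0.149 and 0.0439) and r = -0.37 on LCLF (rho = -0.35; adjusted p = 0.000475 and 0.00115). In liver the same pair had r = 0.52 and rho = 0.46 for the change, 0.50 on HCHF and 0.44 on LCLF, and 66 of 84 animals had both genes lower. Whether the correlations differ between tissues was not tested.

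**Figure D4:**
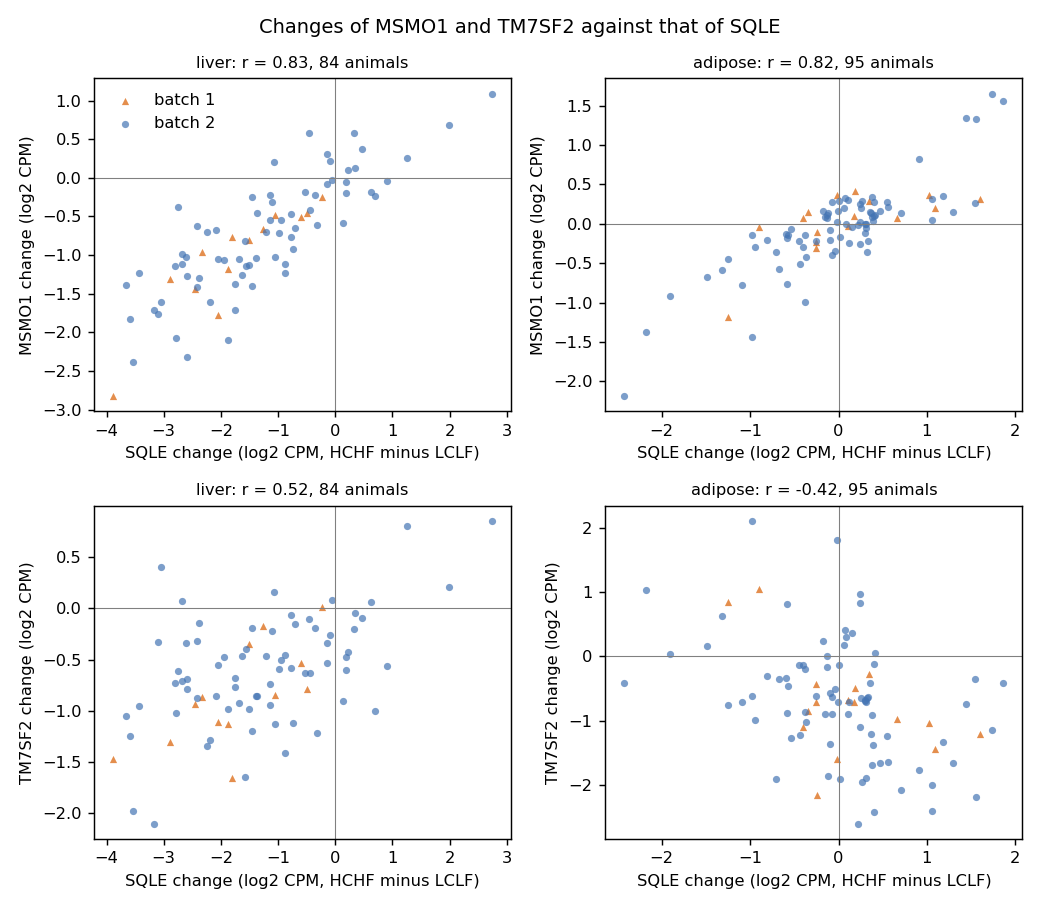
Within-animal changes (HCHF minus LCLF, log2 CPM) of MSMO1 (top) and TM7SF2 (bottom) against that of SQLE in liver (left) and adipose tissue (right); each point is an animal, with triangles for batch 1 and circles for batch 2, and r is computed with batch means removed. MSMO1 rises with SQLE in both tissues (r = 0.83 and 0.82), whereas TM7SF2 rises with SQLE in liver (r = 0.52) and falls against it in adipose tissue (r = -0.42).

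The genes whose changes were most like those of the pair differed between tissues. In liver, among 11706 named genes of at least 1 CPM, those most like SQLE included MSMO1 (r = 0.83), HMGCS1 (0.80), MVD (0.71) and IDI1 (0.70), and TM7SF2 was followed by EBP (0.74), FDPS (0.71), NSDHL (0.64), ERG28 (0.63) and SLC25A1, the mitochondrial citrate carrier (0.62). In adipose tissue, among 13025 genes, those most like SQLE included MSMO1 (0.82), HMGCS1 (0.78) and FDPS (0.73). TM7SF2 was followed there by CIDEA, a protein of lipid droplets (0.84), ACSS3 and ACSM3, acyl-CoA synthetases (0.80 each), PCK2, a mitochondrial carboxykinase (0.80), and ACAD8, an acyl-CoA dehydrogenase (0.80). All 5 of these were lower on HCHF, CIDEA by -0.67 ± 0.11 and PCK2 by -0.62 ± 0.09. These likenesses were picked from many genes and carry no test.

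A further grouping was seen among the other adipose members. The change of LSS followed SREBF2 (r = 0.80) and SREBF1 (0.73), and that of NSDHL followed FASN, the fatty acid synthase (0.83), and SREBF1 (0.72), whereas SQLE followed these less closely (0.41 with SREBF2, 0.18 with SREBF1 and 0.18 with FASN). TM7SF2 had r = -0.25 with SREBF2 and -0.35 with HMGCS1. The change of EBP ran against the adipocyte score (r = -0.60), as did those of DHCR7 (-0.46) and SQLE (-0.32), while NSDHL (0.49) and SC5D (0.46) ran with it. The part of these scores in the correlations between members was not tested beyond the pair above.

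**Figure D5:**
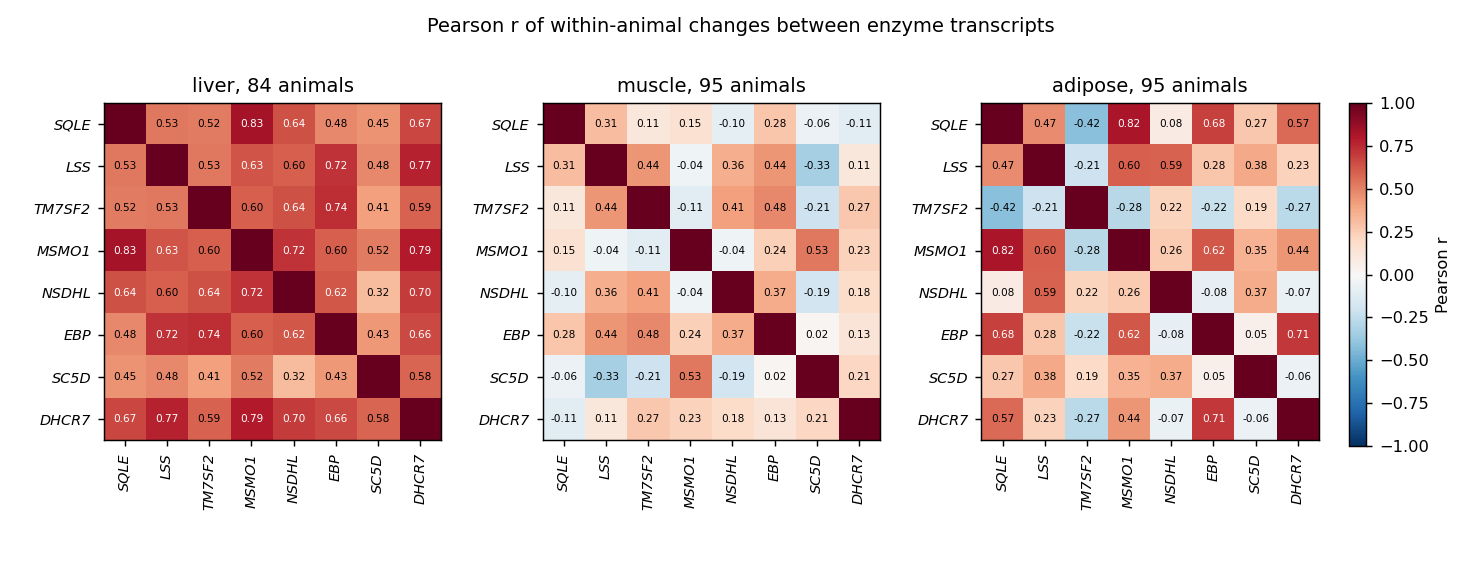
Pearson r between the within-animal changes of each pair of enzyme transcripts, with batch means removed, in liver (84 animals), muscle (95) and adipose tissue (95); red is positive and blue negative. All 28 pairs are positive in liver (0.32 to 0.83), and in adipose tissue TM7SF2 is negative with SQLE, MSMO1, DHCR7 and EBP, which passed the test, and with LSS, which did not (r = -0.21).

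In muscle the pairs were of mixed sign. For the LCLF level 10 of 28 pairs correlated positively and 10 negatively. There LSS, TM7SF2, NSDHL and EBP went together (r from 0.40 to 0.66) and against SC5D (r from -0.61 to -0.51). In the 16 animals of batch 1 the relations with SC5D lay between -0.31 and 0.08. LSS had r of -0.10, -0.15 and 0.06 there with TM7SF2, NSDHL and EBP, which had 0.27 to 0.70 among themselves. Such values over all animals were common. Of all pairs of muscle genes, 19.2% reached the weakest positive r called (0.28) and 22.3% the weakest negative one (-0.24). SC5D on LCLF also correlated with sequencing depth at r = 0.36 (permutation test, adjusted p = 0.00192), as did MSMO1 at 0.34 (0.00384). Neither passed by rho (0.28 and 0.31, adjusted permutation p = 0.0712 and 0.0511). LSS, TM7SF2, NSDHL and EBP had r of -0.08, -0.25, -0.19 and -0.20 with depth, which did not pass, and -0.37 to -0.26 in batch 2. The part of depth in these pairs was not tested. For the HCHF level 7 pairs correlated positively and 3 negatively, and 7 and 9 did without the 2 animals whose muscle libraries held hepatocyte markers. With all animals, 5.48% of all gene pairs reached the weakest positive r called there (0.49) and 22.6% the weakest negative one (-0.22). Of the 28 member pairs 25% were called positive and 10.7% negative. For the change 12 of 28 pairs correlated positively and 1 negatively, with a median r of 0.16, where 17.1% of all gene pairs reached the weakest positive r called (0.23). Without those 2 animals the counts were 10 and 5 and the median was 0.07. SQLE and MSMO1, the closest pair of liver and adipose tissue, had r = 0.15, and MSMO1 and SC5D the highest value (0.53, and 0.43 without those animals). The change of EBP correlated with the hepatocyte score at r = 0.50, but its rho was 0.22 and did not pass (adjusted permutation p = 0.0929), and r was 0.21 without the 2 farthest animals. For TM7SF2 r was 0.48, rho 0.28 and r without the 2 farthest 0.36. SQLE was most like COL5A1, a collagen gene (0.60), ADGRA2 (0.58), TPBG (0.57), MAN1C1 (0.56) and BGN, a matrix proteoglycan (0.56), and TM7SF2 most like BSCL2, the seipin gene (0.71), SAT2 (0.71), GNPTG (0.70), PEX6 (0.69) and NIT2 (0.68).

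An animal's level was partly kept between diets in liver. The HCHF level of a member correlated with its LCLF level at r from 0.33 (DHCR7) to 0.51 (SC5D). Of the 8 members 8 passed a permutation test adjusted over 96 such relations. The share of all genes that keep their level in this way is not given here. In adipose tissue SC5D (r = 0.50) and NSDHL (0.47) were the most stable. MSMO1 did not pass there (r = 0.13, adjusted permutation p = 0.36), and SQLE showed no relation between diets (r = -0.01, adjusted permutation p = 0.95). SQLE showed none in muscle either (0.05), where DHCR7 had 0.71. Between tissues, an animal's changes in liver and adipose tissue correlated for LSS (r = 0.40, rho = 0.31; adjusted p = 0.00126 and 0.0184; n = 82) and NSDHL (r = 0.34, rho = 0.30; adjusted p = 0.0076 and 0.0238) but did not pass for SQLE (0.01) or TM7SF2 (0.18). For SQLE the value in batch 1 was 0.74 among 13 animals and in batch 2 -0.08 among 69.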

How the data were processed

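RNA from frozen liver, muscle and adipose tissue was sequenced in a pair of batches that differed in library kit and read layout, with all libraries of an animal in the same batch, per the labels' protocols. FastQC, STAR 2.7.7a and featureCounts are named in the submitters' processing notes; the sources used here do not give their settings, the build, the gene models or the use of strand. Whole-number counts, not normalized, were deposited per gene by the authors for 588 libraries and for the 570 that passed their quality control, the table used here. Symbols were looked up in the RefSeq annotation of assembly Panubis1.0, which matched 33824 of 34178 names (99.0%) and was used for names and overlapping neighbours only. Batch membership is not in the labels. It was taken from the leading axis of expression averaged per animal (21.6% of variance), where 16 animals lay apart from 83 by 39.6 units and no other gap exceeded 1.8. The 16 are called batch 1 and the 83 batch 2.

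The software was Python 3.11.15 for permutations and R 4.3.3 with DESeq2 1.42.0, limma 3.58.1 and edgeR 4.0.16. Per tissue, counts of paired libraries were TMM-scaled, filtered by filterByExpr (minimum count 10) and tested by the quasi-likelihood test of edgeR, blocked by animal, with a common dispersion estimated on 500 genes, with Benjamini-Hochberg adjustment over all genes tested at 0.05. Levels between tissues were tested in the same way on LCLF libraries scaled together, so their CPM differ from those of the diet comparison. Within-animal changes are differences of log2 CPM with a prior count of 2, and limma (trend on mean expression) tested how they differed between tissues. Correlations were tested with 100000 permutations within batch, two-sided, and changes against SQLE by sign flips. A marker score is the mean log2 CPM of the list's tested genes. The fits with marker scores as covariates left out the score of the tissue's own cells (hepatocytes, skeletal myocytes or adipocytes). Lists with too few tested genes were left out as well. The fits and the permutation test were tested on simulated data.

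Libraries of an animal pair by the labels. To check this, an animal's deviations from the group mean at the 2 times were correlated, giving a median r of 0.511, 0.478 and 0.495 within an animal in liver, muscle and adipose tissue, and -0.0146, 0.0065 and -0.0084 between animals. The alternatives tried were limma-voom, RLE size factors, no filter (limma-voom), mean CPM of at least 1, no replicate block, DESeq2, the table of 588 libraries, each batch alone, the marker scores as covariates, a prior count of 0.5, and leaving out animals with low marker shares. Leaving out animals with markers of another tissue, and removing the marker scores from the correlation of TM7SF2 and SQLE, were chosen after seeing the data. The members, the gene lists and the tests were chosen with earlier results of these data known. The members, SREBF2, INSIG1, HMGCS1 and LBR were to be named whatever their result, with up to 2 more genes per pathway list by size of change and, per tissue, the 5 most like SQLE and the 5 most like TM7SF2 by r of the change (at least 1 CPM). FDPS in muscle and adipose tissue, SREBF1 and FASN in correlations, and VPS51 were named after their values were seen. Some genes that the rule names are not reported here. No sequences are printed, and depth limits the genes of low count, such as SQLE in muscle.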

Additional observations from a re-analysis of the deposited data

Results flagged for a closer look

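The diet effect (HCHF minus LCLF, log2 CPM within animals) differed between tissues by limma's test of the difference itself in 15 cases. Liver minus muscle, in 80 animals, gave -1.18 for SQLE, -0.87 for MSMO1, -0.65 for DHCR7, -0.57 for TM7SF2, -0.50 for SC5D, -0.45 for NSDHL, -0.38 for EBP and -0.32 for LSS. Liver minus adipose tissue, in 82 animals, gave -1.31 for SQLE, -1.0 for DHCR7, -0.74 for MSMO1, -0.51 for EBP and -0.20 for LSS. Adipose tissue minus muscle, in 91 animals, gave -0.60 for TM7SF2 and 0.40 for DHCR7, the only 2 members to pass there and of opposite sign. Markers of other cells moved with the diet in all 3 tissues (in muscle 7 of 10 macrophage markers rose and 7 of 11 endothelial markers fell), and their part in these differences was not tested.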

How the results depend on the processing

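The count of 8 members lower in liver was 0 with marker scores as covariates, 7 in batch 1 alone, where LSS (-0.54) did not pass, and 8 under the other alternatives run. In muscle the count of 0 became 1 (DHCR7) in the table of 588 libraries and 1 without animals with markers of another tissue. In adipose tissue the count of 4 became 2 with no replicate block by edgeR, 2 by DESeq2, 2 in the table of 588 libraries, 1 with marker scores as covariates and 0 in batch 1 alone, where 1 of 15601 genes passed. With the covariates NSDHL in adipose tissue reversed to 0.13; the cause was not tested. The animals pair by the labels, and the replicate block changed no other count of members past 1.5 times. In batch 1 alone, with at most 16 animals, 2 members differed between liver and muscle, 3 between liver and adipose tissue and 0 between adipose tissue and muscle. Counted over all tissues and measures, 46 correlations between members passed in batch 1, where 181 did in all animals. Counted over all tissues, 7 differences of a member from SQLE passed in batch 1, where 13 did in all animals. The relation of TM7SF2 and SQLE in adipose tissue did not pass there at -0.55 for the change and -0.42 on LCLF, and on HCHF it passed at -0.25 without the 2 animals farthest in SQLE. Of 816 values under an alternative, 653 for single genes and 95 others kept their direction and side of the threshold, or for counts stayed within 1.5 times. Genes with low counts limit the precision in muscle.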

Other observations

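Some members moved with cell markers or other lipid genes in ways that the comparisons above do not cover. The relations given here were picked after their values were seen, from 184 with marker scores and 240 with other genes, and each carries Pearson's r of the within-animal changes with an adjusted p from permutations within batch.

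In adipose tissue 6 of 7 mesothelial markers rose, with sums of 147.5 to 4002 CPM on HCHF and 35.1 to 3142 CPM on LCLF. The change of DHCR7 correlated with that of the mesothelial score at r = 0.61 (rho = 0.61, adjusted permutation p = 0.000153, 95 animals), with 0.86 in batch 1, 0.56 in batch 2 and 0.64 without the 2 animals farthest from the median. EBP had r = 0.40 (rho = 0.38, adjusted permutation p = 0.000526), with 0.49 in batch 1, 0.39 in batch 2 and 0.41 without the 2 farthest. NSDHL had the opposite sign at -0.37 (rho = -0.32, adjusted permutation p = 0.00219), with -0.28 in batch 1, -0.38 in batch 2 and -0.34 without the 2 farthest.

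In muscle the change of SC5D correlated with that of HMGCS1 at 0.69 (rho = 0.70, adjusted permutation p = 3.53e-05, 95 animals), with 0.71 in batch 1, 0.69 in batch 2 and 0.64 without the 2 farthest. LSS had -0.51 with HMGCS1 (rho = -0.37, adjusted permutation p = 3.53e-05) and -0.44 without the 2 farthest, but its r was 0.35 in batch 1 and -0.61 in batch 2, so the relation did not hold within both batches.

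In liver the change of LSS correlated with that of SCD, a fatty acid desaturase, at 0.60 (rho = 0.62, adjusted permutation p = 3.53e-05, 84 animals), with 0.65 in batch 1, 0.60 in batch 2 and 0.63 without the 2 farthest. SQLE had 0.11 with SCD (rho = 0.12, adjusted permutation p = 0.401), with 0.21 in batch 1, 0.10 in batch 2 and 0.18 without the 2 farthest.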
